A study of Danio rerio with 15 samples.

Results

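The enzymes of cholesterol synthesis were followed through 8 genes of the route: hmgcs1, hmgcra, idi1, fdft1, lss, cyp51, nsdhl and dhcr7. Every probe set whose only annotated gene symbol was one of these was taken, which gave 8 of the 15502 probe sets tested and 5 of the 8 genes. hmgcs1, fdft1, nsdhl and dhcr7 had 1 probe set each and cyp51 had 4, whereas hmgcra, idi1 and lss had no probe set with that single symbol and were not analysed here. The RNA came from whole zebrafish larvae and was read on 15 one-colour Affymetrix arrays in 5 groups of 3. The groups were larvae in water with 25 µg/L fluoxetine, 250 µg/L fluoxetine, 25 µg/L sertraline or 250 µg/L sertraline, and control larvae in the same water with neither drug. Both drugs are selective serotonin reuptake inhibitors (SSRIs), used in people as antidepressants. Exposure began at 72 h after fertilisation and lasted 96 h, during which no group was fed and all lived on yolk. One array stands for the pooled larvae of one beaker, about 100 animals, so the spread within a group is that between beakers.

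Cells build cholesterol from acetyl-CoA through mevalonate, the isoprenoid diphosphates, squalene and lanosterol. The genes of the route are best known as targets of the sterol regulatory element binding proteins, which switch them on together when membranes run short of sterol. Larval fish also take cholesterol from the lipoproteins of the yolk, and liver, intestine, brain and the yolk syncytial layer all handle sterols, so whole-larva RNA averages over these tissues.

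The deposited log2 values ran between 0.74 and 15.49, and any 2 arrays correlated at 0.982 to 0.997 over all probe sets. The mean r of an array with the other arrays of its group was 0.986 to 0.989 in fluoxetine 25. It was 0.9947 to 0.9967 in the other groups. GAPDH 3' minus 5', a log2 difference that grows as RNA or labelled product is shortened, averaged 1.96 in fluoxetine 25, 1.45 in fluoxetine 250, 2.08 in sertraline 25, 2.27 in sertraline 250 and 1.66 in control larvae. It was largest on the array of sertraline 250 replicate 2, at 3.16, and next on fluoxetine 25 replicate 3, at 2.36.

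fdft1 was lower in both fluoxetine groups than in control larvae, and it was the only one of the 5 measured genes to pass the test against control at any concentration. The gene encodes squalene synthase, which joins farnesyl diphosphate into squalene and so commits isoprenoids to sterols. Its log2 level was 5.18, 5.20 and 5.32 in fluoxetine 25 larvae and 5.26, 5.11 and 5.32 in fluoxetine 250 larvae, against 5.55, 5.76 and 5.52 in control larvae. All 6 fluoxetine arrays lay below all 3 control arrays. In whole larvae, fewer cells that make a transcript and less of it in each cell cannot be told apart.

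Relative to control, fdft1 fell by 0.38 ± 0.08 on the log2 scale in fluoxetine 25 larvae (SE, 95% interval -0.56 to -0.20, 1.30-fold lower, adjusted p = 0.0288 by limma, n = 3 each). In fluoxetine 250 larvae it fell by 0.38 ± 0.08 as well (-0.56 to -0.20, adjusted p = 0.0462). With both fluoxetine groups averaged, a comparison added after the values were seen, the fall was 0.38 ± 0.07 with an adjusted p of 0.0125. The call at 25 µg/L was lost without fluoxetine 25 replicate 1 (adjusted p = 0.0734), fluoxetine 25 replicate 2 (0.0957) or control replicate 2 (0.121). The call at 250 µg/L was lost when any 1 of its 6 arrays was left out, with adjusted p-values of 0.0548 to 0.168, while the difference stayed between -0.43 and -0.31. The averaged comparison lost its call without control replicate 2, at an adjusted p of 0.0792.

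The fdft1 values of the sertraline groups were ordered otherwise, and neither group passed against control. The level was 5.69, 5.74 and 5.68 in sertraline 25 larvae, among the control values, and 5.22, 5.42 and 5.42 in sertraline 250 larvae, below all 3 control arrays. The sertraline 25 group differed from control by 0.09 (95% interval -0.09 to 0.27, adjusted p = 0.999). The sertraline 250 group differed from control by -0.26 ± 0.08, with an unadjusted p of 0.00784 and an adjusted p of 0.540, so it did not pass. Ordered by mean, fdft1 was highest in sertraline 25 (5.70 ± 0.03, SD, n = 3), then control (5.61 ± 0.13), sertraline 250 (5.35 ± 0.12), fluoxetine 25 (5.23 ± 0.07) and fluoxetine 250 (5.23 ± 0.11). Of these neighbours, sertraline 250 and control did not overlap in their arrays without passing the adjusted test, and at each other step the arrays of the neighbouring groups overlapped. Over all 5 groups, fdft1 was the only member to pass the F test of limma (adjusted p = 0.0118), which called 2.79% of all probe sets, and it passed under all 23 alternatives, at 0.00563 to 0.0398.

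**Figure D1:**
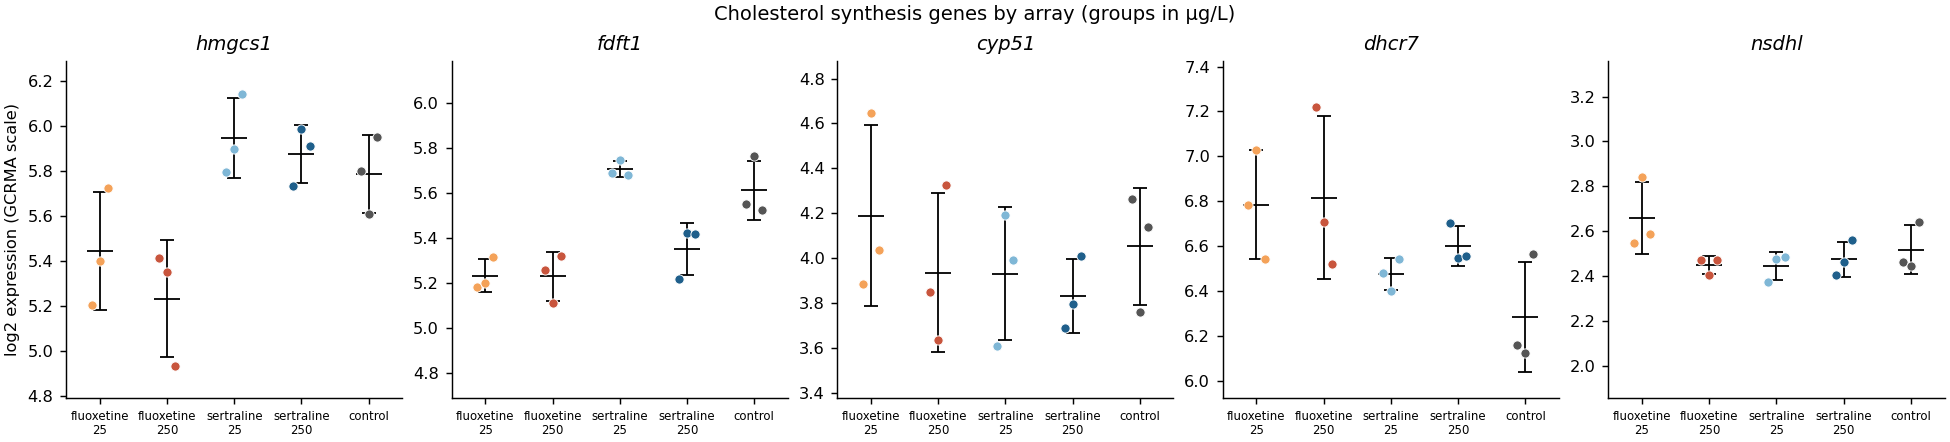
Log2 expression on the GCRMA scale (y axis) of the 5 measured genes, 1 panel a gene and 1 point an array, with the group mean and SD (n = 3) as bars; cyp51 is shown by its probe set with the highest mean, and each panel has its own range. The 6 fluoxetine arrays of fdft1 (5.11 to 5.32) lie below the 3 control arrays (5.52 to 5.76), and the hmgcs1 arrays of the fluoxetine groups (4.93 to 5.73) lie below those of the sertraline groups (5.73 to 6.14).

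hmgcs1, the cytosolic synthase that makes HMG-CoA at the head of the mevalonate route, had its lowest values under fluoxetine but did not pass the test against control. It measured 5.21, 5.40 and 5.73 in fluoxetine 25 larvae and 5.41, 5.35 and 4.93 in fluoxetine 250 larvae, against 5.80, 5.61 and 5.95 in control larvae. The fluoxetine 250 arrays lay below all control arrays, and fluoxetine 25 replicate 3 overlapped them. The difference from control was -0.34 ± 0.16 for fluoxetine 25 (adjusted p = 0.259) and -0.55 ± 0.16 for fluoxetine 250 (95% interval -0.90 to -0.21, 1.47-fold lower, adjusted p = 0.149). In sertraline larvae the gene measured 5.80, 5.90 and 6.14 at 25 µg/L and 5.73, 5.99 and 5.91 at 250 µg/L, overlapping the control values. The differences from control were 0.16 (-0.18 to 0.50) for sertraline 25 and 0.09 (-0.25 to 0.43) for sertraline 250.

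dhcr7 encodes the reductase that makes cholesterol in the last step of one branch of the route, and its means were highest under fluoxetine. Its level was 6.78, 7.03 and 6.54 in fluoxetine 25 larvae and 7.22, 6.71 and 6.52 in fluoxetine 250 larvae. It was 6.48, 6.40 and 6.54 in sertraline 25 larvae and 6.71, 6.55 and 6.56 in sertraline 250 larvae, against 6.16, 6.13 and 6.56 in control larvae. Control replicate 3 stood well above the other 2 control arrays, and every treated group overlapped control. The difference from control was 0.50 ± 0.17 for fluoxetine 25 (adjusted p = 0.164), 0.53 ± 0.17 for fluoxetine 250 (adjusted p = 0.227), 0.19 ± 0.17 for sertraline 25 (adjusted p = 0.999) and 0.32 ± 0.17 for sertraline 250 (adjusted p = 0.819). All 4 differences were above 0 and none passed.

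cyp51 and nsdhl act between lanosterol and dhcr7. Both take part in stripping methyl groups from the sterol nucleus, cyp51 as lanosterol demethylase and nsdhl as a sterol dehydrogenase. By its probe set with the highest mean, cyp51 measured 3.89, 4.65 and 4.04 in fluoxetine 25, 3.85, 3.64 and 4.32 in fluoxetine 250, 3.61, 4.19 and 3.99 in sertraline 25, 3.69, 3.80 and 4.01 in sertraline 250 and 4.26, 3.76 and 4.14 in control larvae. The groups overlapped throughout, and the 4 differences from control, 0.13, -0.12, -0.12 and -0.22 in the same order, had a standard error of 0.23 each. nsdhl measured 2.55, 2.84 and 2.59 in fluoxetine 25 larvae and between 2.38 and 2.64 on all 12 other arrays. Its differences from control lay between -0.07 and 0.14, with a standard error of 0.08. The nsdhl probe set lay at the 13th percentile of mean level, and the median difference over all probe sets was 0.06 in fluoxetine 25 larvae.

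**Figure D2:**
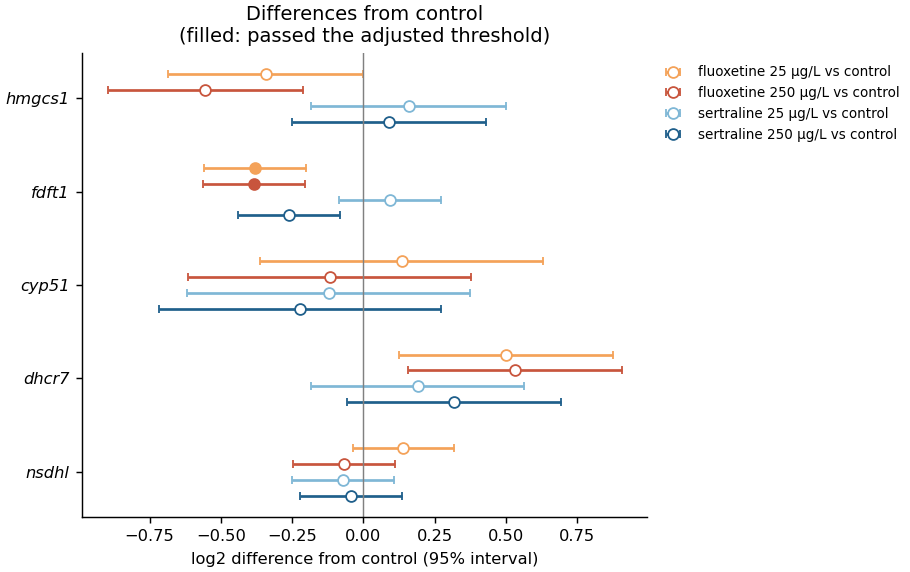
Log2 difference from control (x axis) with its 95% interval for each measured gene, 1 colour a treated group, filled where the adjusted p was under 0.05. Only fdft1 in the fluoxetine groups is filled, at -0.38 in both, and the 4 intervals of cyp51 and of nsdhl all span 0.

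Set against the whole array, 1 of the 8 probe sets passed in fluoxetine 25 against control, where 2.53% of all probe sets passed, and 1 of 8 in fluoxetine 250, where 1.15% passed. None of the 8 passed in sertraline 25 or sertraline 250, where 0.0645% and 0% of all probe sets passed. At an unadjusted p under 0.05 the members counted 3 of 8 in fluoxetine 25, 3 of 8 in fluoxetine 250, 0 of 8 in sertraline 25 and 1 of 8 in sertraline 250. Over all probe sets the shares at that rule were 19.2%, 10.7%, 3.99% and 6.34%. Arrays did not overlap with control in 2, 2, 0 and 1 of the 8, against 25.3%, 14.8%, 9.78% and 14.3% of all probe sets. The median difference of the 5 genes was 0.13, -0.12, 0.09 and -0.04, against 0.06, -0.02, -0.03 and -0.04 over all probe sets. Averaged over the 4 SSRI groups, fdft1 differed from control by -0.23 ± 0.07 (adjusted p = 0.198) and dhcr7 by 0.39 ± 0.14 (adjusted p = 0.423), in a comparison that called 0.69% of all probe sets and none of the 8. The average of both fluoxetine groups called 2.39% of all probe sets, of which fdft1 was the only member, and separated from the control arrays without overlap in 5.59% of all probe sets. The average of both sertraline groups called 0.0194% and no member.

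The drugs were compared with each other at each of the 2 matched concentrations. The shared control mean does not enter these differences, but the control arrays still entered the estimate of the spread. At 25 µg/L, fdft1 was higher in sertraline larvae (5.68 to 5.74) than in fluoxetine larvae (5.18 to 5.32), by 0.47 ± 0.08 (95% interval 0.29 to 0.65, 1.39-fold, adjusted p = 0.0123, n = 3 each). It was the 1 member to pass there, where 2.1% of all probe sets passed. The call was lost without sertraline 25 replicate 1 or 2, with adjusted p-values up to 0.0560, and in a fit of these groups alone, at 0.0614. At 250 µg/L the fdft1 difference was 0.12 (-0.06 to 0.30, adjusted p = 0.658) between sertraline larvae (5.22 to 5.42) and fluoxetine larvae (5.11 to 5.32), which overlapped. No member passed at 250 µg/L, where 1.37% of all probe sets did.

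hmgcs1 differed between the drugs by similar amounts at both concentrations. Sertraline minus fluoxetine was 0.50 ± 0.16 at 25 µg/L (0.16 to 0.84, adjusted p = 0.0958) and 0.65 ± 0.16 at 250 µg/L (0.30 to 0.99, adjusted p = 0.0727). Neither passed alone. The arrays did not overlap at either concentration, as was so for 35.7% of all probe sets at 25 µg/L and 16.8% at 250 µg/L.

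A comparison of both sertraline groups with both fluoxetine groups was added after these values were seen. In it hmgcs1 was higher in sertraline larvae by 0.57 ± 0.11 (0.33 to 0.82, 1.49-fold, adjusted p = 0.0126, n = 6 each). The lowest of the 6 sertraline arrays was 5.735 and the highest of the 6 fluoxetine arrays 5.726, so the drugs separated by a margin far under the spread within a group. fdft1 was higher in sertraline larvae by 0.30 ± 0.06 (0.17 to 0.42, 1.23-fold, adjusted p = 0.0133), with overlap between 5.22 to 5.74 in sertraline and 5.11 to 5.32 in fluoxetine larvae. This comparison called 4.53% of all probe sets, and 3.2% of all had arrays that did not overlap.

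The GAPDH 3' minus 5' difference was larger in both sertraline groups than in the fluoxetine group of the same concentration, and over the 15 arrays it correlated with hmgcs1 at r = 0.53 and with fdft1 at r = 0.16 (0.37 and 0.18 within groups). With it as a covariate, the averaged difference between the drugs was 0.49 for hmgcs1 (adjusted p = 0.0704) and 0.28 for fdft1 (adjusted p = 0.0637), and neither passed. The fdft1 difference at 25 µg/L still passed with the covariate, at 0.47 and an adjusted p of 0.0182. Without the 2 arrays of largest GAPDH difference, the averaged differences were 0.62 for hmgcs1 (adjusted p = 0.0111) and 0.30 for fdft1 (adjusted p = 0.0247).

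No other member passed between the drugs. dhcr7 differed by -0.31 (-0.68 to 0.06) at 25 µg/L and -0.21 (-0.59 to 0.16) at 250 µg/L, sertraline minus fluoxetine. For cyp51, by its probe set with the highest mean, the differences were -0.26 (-0.75 to 0.24) and -0.10 (-0.60 to 0.39). Its A1_x_at probe set differed by -0.35 (-0.58 to -0.13, adjusted p = 0.0864) at 25 µg/L, an interval below 0. At 250 µg/L that probe set differed by 0.007 (-0.22 to 0.23). For nsdhl the differences were -0.21 (-0.39 to -0.03, adjusted p = 0.132) and 0.03 (-0.15 to 0.20). At 25 µg/L these intervals leave room in dhcr7 and cyp51 for a difference as large as that of fdft1 (0.47), but only in the opposite direction.

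**Figure D3:**
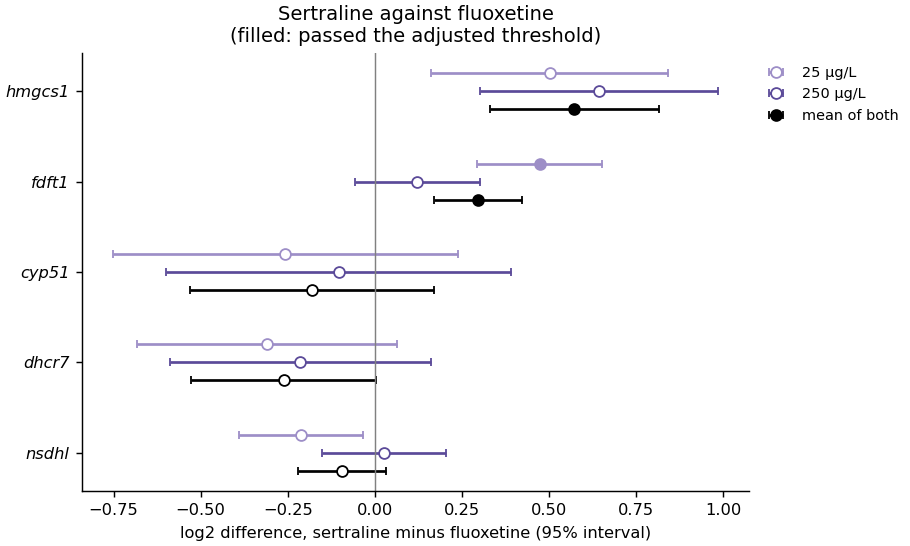
Log2 difference of sertraline minus fluoxetine (x axis) with its 95% interval, at 25 µg/L, at 250 µg/L and averaged over both, filled where the adjusted p was under 0.05. hmgcs1 lies at 0.50, 0.65 and 0.57 and fdft1 at 0.47, 0.12 and 0.30, whereas the points of dhcr7 and cyp51 lie below 0 with intervals that reach 0. cyp51 is shown only by its probe set with the highest mean.

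Between the concentrations of one drug, no member passed. In fluoxetine larvae, the 95% interval of the fdft1 difference between 250 and 25 µg/L was -0.18 to 0.18. The widest difference there was -0.32 ± 0.10 in the A1_x_at probe set of cyp51 (unadjusted p = 0.00847, adjusted p = 0.233), in a comparison that called 0.252% of all probe sets, with 3 of the 8 members and 22.7% of all probe sets not overlapping. In sertraline larvae, fdft1 differed by -0.35 ± 0.08 between 250 and 25 µg/L (-0.53 to -0.18), with an unadjusted p of 0.000957 and an adjusted p of 0.391. That comparison called 0% of all probe sets, and arrays did not overlap in 2 of the 8 members and in 11.6% of all. The fdft1 change with concentration differed between the drugs by -0.35 ± 0.12 (interaction, sertraline minus fluoxetine, adjusted p = 0.512) and did not pass, where 0.00645% of all probe sets passed.

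cyp51 is the one gene that several probe sets read, and they were not equally informative. The A1_at and A1_x_at probe sets of its Dr cluster ranged over 3.61 to 4.65 and 3.16 to 3.80 on the 15 arrays, while the A1_at probe set of its DrAffx cluster stayed between 1.48 and 1.66 and the S1_at probe set of that cluster between 1.13 and 1.23. The last 2 lay near the lower end of the deposited scale. Across arrays the 4 correlated with each other at r = 0.59 to 0.84 (15 arrays, which share group and array effects). The A1_x_at probe set measured 3.55, 3.80 and 3.77 in fluoxetine 25 larvae, against 3.50, 3.37 and 3.61 in control larvae, a difference of 0.21 ± 0.10 (adjusted p = 0.277). The suffix x marks a probe set with probes that may also bind other transcripts. None of the 4 passed in any of the 14 comparisons.

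**Figure D4:**
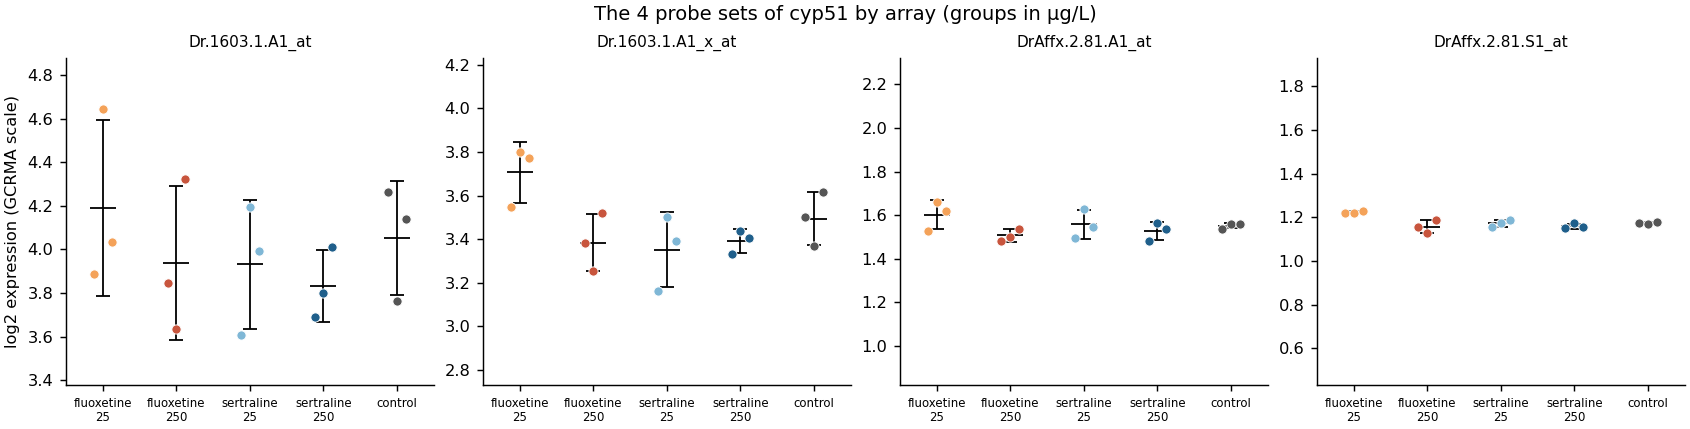
Log2 expression on the GCRMA scale (y axis) from each of the 4 cyp51 probe sets, 1 point an array, with the group mean and SD (n = 3) as bars, and each panel has its own range. The points of both DrAffx probe sets lie between 1.13 and 1.66, and the A1_x_at probe set has its highest mean in fluoxetine 25 larvae.

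The members did not vary as one unit over the 15 arrays. hmgcs1 and fdft1 correlated at r = 0.60 over all arrays and at r = -0.09 once each group's mean was removed, so the likeness lay between groups. fdft1 and dhcr7 correlated at r = -0.71, and at r = -0.43 within groups. cyp51 and nsdhl correlated at r = 0.75 both over all arrays and within groups. Both had their highest value on the array of fluoxetine 25 replicate 2, at 4.65 and 2.84. nsdhl was low on the scale, with a mean of 2.51 at the 13th percentile of all probe sets. All arrays of a group share a treatment and all values of an array share its RNA and scaling, so these are descriptions.

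None of the other measured enzymes of the route passed. acat2, mvk, fdps, msmo1 and lbr, which make acetoacetyl-CoA, mevalonate phosphate, farnesyl diphosphate and later sterol intermediates (lbr by its sterol reductase domain in mammals), were the 5 measured of 16 listed, and the count was 0 in every comparison made. fdps, which makes the substrate of squalene synthase, measured 5.55, 5.31 and 5.30 in fluoxetine 25 larvae and 5.21, 5.05 and 5.31 in fluoxetine 250 larvae, against 5.31, 5.21 and 5.12 in control larvae, with overlap. Its differences were 0.18 (adjusted p = 0.352) and -0.02 (adjusted p = 0.989). The F test gave lbr the smallest p of the 5 (adjusted p = 0.318), followed by fdps (adjusted p = 0.398).

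Around the route, 2 genes passed against control. Both did so in fluoxetine 25 larvae, where 2.53% of all probe sets passed. nr0b2a also passed over the 4 SSRI groups, where 0.69% did, and over both fluoxetine groups, where 2.39% did. Of 10 measured genes of bile acid and steroid use, nr0b2a passed and was higher; it encodes an orphan nuclear receptor that represses bile acid synthesis in mammals. It measured 6.17, 5.92 and 4.73 in fluoxetine 25 larvae, 5.29, 5.97 and 4.88 in fluoxetine 250 larvae, 4.64, 4.88 and 5.23 in sertraline 25 larvae and 5.82, 6.24 and 6.12 in sertraline 250 larvae, against 4.07, 4.10 and 3.27 in control larvae. All 12 SSRI arrays lay above all 3 control arrays, and the share of all probe sets that separate in this way was not counted. The difference from control was 1.80 ± 0.37 in fluoxetine 25 larvae (adjusted p = 0.0212, lost in 3 of 6 fits that left out 1 array, up to 0.0959) and 1.68 ± 0.29 over the 4 SSRI groups (adjusted p = 0.0214). The second of these calls was lost in the 3 of 15 fits that left out a control array, with an adjusted p of up to 0.172 without control replicate 3. With both fluoxetine groups averaged, a comparison added after the values were seen, the nr0b2a difference was 1.68 ± 0.32 (adjusted p = 0.0141). That call held in 8 of 9 fits that left out 1 array (up to 0.0937). The F test over the 5 groups called nr0b2a too (adjusted p = 0.0290), and this held in 5 of 15 such fits. The nr0b2a difference was 1.57 in fluoxetine 250 larvae (adjusted p = 0.0745) and 2.25 in sertraline 250 larvae (adjusted p = 0.101). In sertraline 25 larvae, whose mean was the lowest of the treated groups, it did not pass either.

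Of 15 measured genes of fatty acid synthesis, lpin1a, a phosphatidate phosphatase listed under its older symbol lpin1, was lower in fluoxetine 25 larvae. It measured 8.75, 8.11 and 8.54 there, against 9.49, 9.36 and 9.59 in control larvae. The difference was -1.01 ± 0.22 (adjusted p = 0.0261), and the call held in 2 of 6 fits that left out 1 array, with adjusted p-values up to 0.108. In the other 3 treated groups its difference from control was -0.36, -0.35 and -0.06, none of which passed. The fatty acid enzymes acaca, scd and fads2, also targets of the sterol regulatory element binding proteins in mammals, did not pass in any comparison with control. The scd probe set read only 1.53 to 1.70 over all arrays, near the lower end of the deposited scale, so its result tells little.

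None of the 10 measured genes of the isoprenoid and ubiquinone branches, the 10 of sterol regulation or the 13 of sterol transport, storage and efflux passed against control. Among the regulators were insig1, which holds the binding proteins in the endoplasmic reticulum when sterol is plentiful, and nr1h3, an oxysterol receptor. insig1 differed from control by 0.06, 0.00, 0.11 and 0.43 in fluoxetine 25, fluoxetine 250, sertraline 25 and sertraline 250 larvae, with adjusted p-values of 0.776 or more. Among the transport genes npc1, which exports cholesterol from late endosomes, had the smallest F test p, and it differed from control by 0.39 in fluoxetine 25 larvae (adjusted p = 0.0685). scarb1, a lipoprotein receptor, came next and differed by 0.31 (adjusted p = 0.113). The widest differences of that list were those of apoa1a, the main protein of high-density lipoprotein, at 1.08, 1.21, 0.22 and 1.83 from control in the same order of groups, with adjusted p-values of 0.366 or more. Between the drugs, averaged over concentrations, a comparison that called 4.53% of all probe sets, 3 further genes passed and were lower in sertraline than in fluoxetine larvae. coq8aa, a kinase-like protein of ubiquinone synthesis, differed by -0.42 (adjusted p = 0.0255), cyp27a1.4, of the sterol hydroxylase family, by -0.31 (adjusted p = 0.0319) and ufd1l, of endoplasmic reticulum protein degradation, by -0.26 (adjusted p = 0.0492). These calls depended on single arrays. Of 12 fits that left out 1 array, coq8aa passed in 7 (adjusted p up to 0.0668), cyp27a1.4 in 4 (up to 0.0831) and ufd1l in 1 (up to 0.115). pdss1, which builds the ubiquinone side chain, differed by 0.26 (adjusted p = 0.0503) and nr1h3 by -0.27 (adjusted p = 0.0520), and neither passed.

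**Figure D5:**
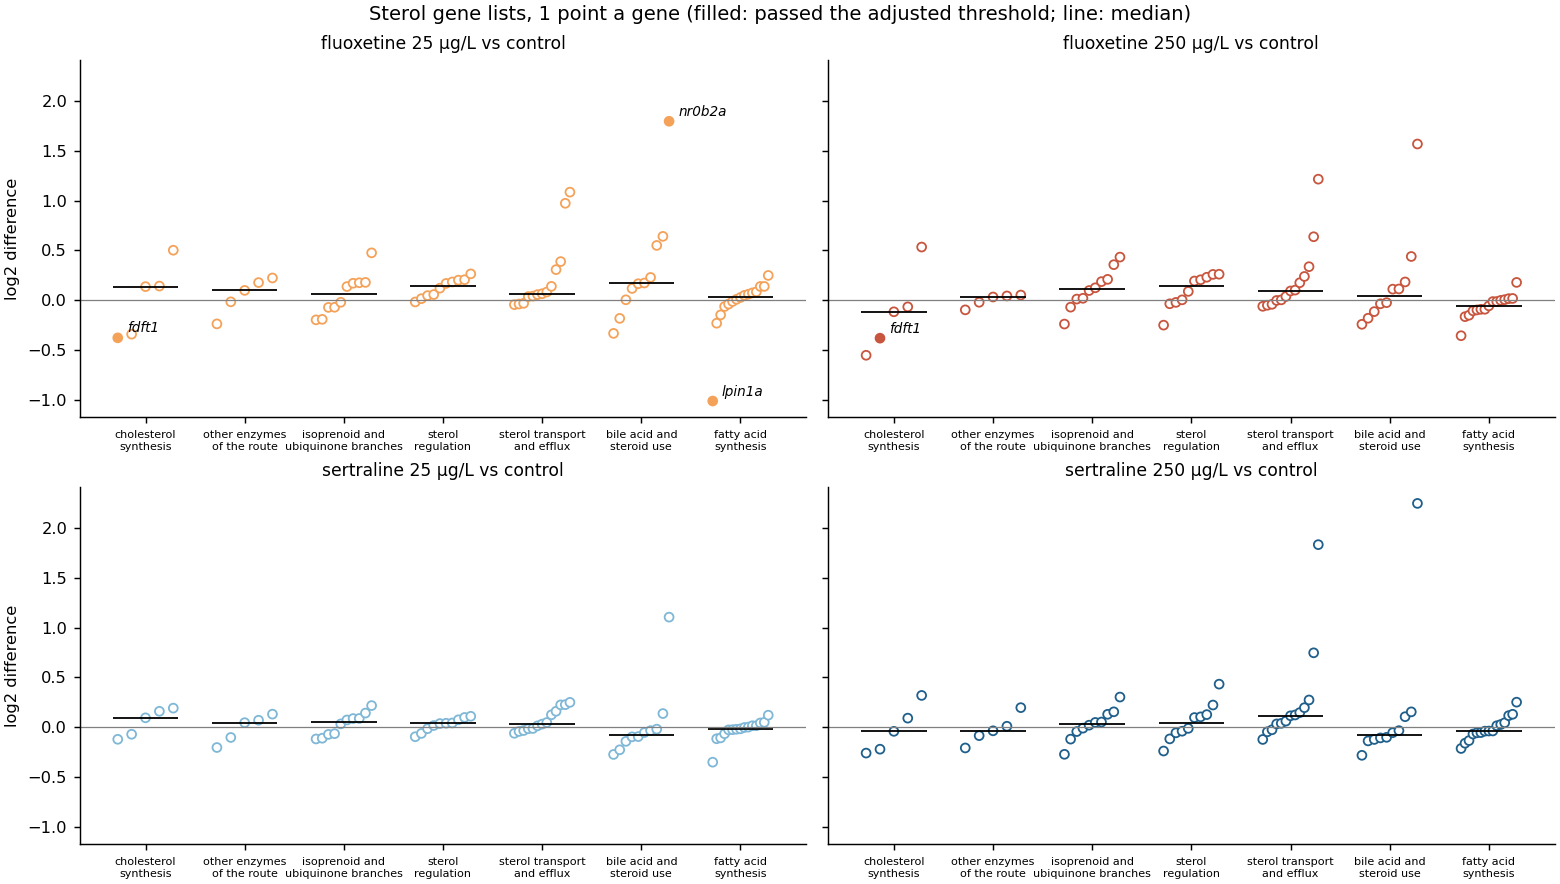
Log2 difference from control (y axis) of every measured gene of the cholesterol synthesis set and 6 related lists, 1 point a gene and 1 panel a treated group, with a line at each list's median and filled points for genes with an adjusted p under 0.05. fdft1, nr0b2a and lpin1a are filled in fluoxetine 25 larvae, fdft1 is filled in fluoxetine 250 larvae, and no point is filled for sertraline.

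The organs that handle sterols were followed through marker lists, none of whose genes passed against control. At an unadjusted p under 0.05 (limma), 12 of 12 pancreas markers were higher in fluoxetine 25 than in control larvae (median difference 2.37). Of all 15502 probe sets, 1699 were higher and 1282 lower by that rule, 19.2% together. Between the drugs, averaged over concentrations, 12 of 12 pancreas and 7 of 13 liver markers were lower in sertraline larvae (medians -1.25 and -0.76). There 4 of 14 neuron and glia markers were higher and 1 lower. In that comparison 1231 of the 15502 probe sets were higher in sertraline larvae and 2880 lower, 26.5% together. The F test over the 5 groups called mbpa, which encodes a myelin protein (adjusted p = 0.0107), and it passed in all 15 fits that left out 1 array (up to 0.0429). It also called ctsla, a cathepsin gene of the lipoprotein list (adjusted p = 0.0476), which passed in 3 of those 15 fits (up to 0.109). These were 1 of 14 neuron and glia markers and 1 of 11 lipoprotein markers, with 0 in the other marker lists. The same test called 2.79% of all probe sets. mbpa differed from control by 0.12, -0.30, -0.13 and -0.50 in fluoxetine 25, fluoxetine 250, sertraline 25 and sertraline 250 larvae, and ctsla by 0.23, 0.50, -0.04 and 0.47. After mbpa, the smallest F test p of the neuron and glia list was that of gfap, an astroglial filament gene (adjusted p = 0.192). After ctsla, that of the yolk syncytial and lipoprotein list belonged to gata5, a transcription factor of endoderm (adjusted p = 0.201). In the liver list the smallest F test p-values belonged to fgg, a fibrinogen chain (adjusted p = 0.224), and hp, haptoglobin (adjusted p = 0.227). In the pancreas list they belonged to ela2l, an elastase (adjusted p = 0.187), and cpa4, a carboxypeptidase (adjusted p = 0.195). In the intestine list they belonged to fabp1b.1, a fatty acid binding protein (adjusted p = 0.0840), and chia.2, a chitinase (adjusted p = 0.189). In the skeletal muscle list they belonged to acta1a, an actin (adjusted p = 0.291), and smyhc1, a slow myosin heavy chain (adjusted p = 0.401). The mean log2 level of 13 liver markers was 6.90 to 8.96 in fluoxetine 25, 8.22 to 9.27 in fluoxetine 250, 6.29 to 7.75 in sertraline 25, 7.95 to 8.62 in sertraline 250 and 7.33 to 8.08 in control larvae. For 11 markers of the yolk syncytial layer and lipoproteins it was 5.30 to 6.07, 5.61 to 5.95, 5.12 to 5.44, 5.65 to 5.78 and 5.27 to 5.53 in the same order. For 12 exocrine pancreas markers it was 6.25 to 9.23, 6.38 to 7.80, 5.68 to 6.71, 6.30 to 6.53 and 4.98 to 6.59. For 14 neuron and glia markers it was 9.52 to 9.91, 9.60 to 9.83, 9.79 to 9.93, 9.69 to 9.80 and 9.81 to 9.95. Fluoxetine 25 replicate 3 stood apart from replicates 1 and 2 of its group. It averaged 6.90 against 8.93 and 8.96 for liver and 6.25 against 9.23 and 8.75 for pancreas. For neuron and glia it averaged 9.91 against 9.52 and 9.55.

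fdft1 and dhcr7 correlated with these lists, except that of skeletal muscle, and did so with opposite signs. The liver and lipoprotein means of all 3 fluoxetine 250 arrays lay above all 3 control arrays, as did the lipoprotein means of all 3 sertraline 250 arrays, and the neuron and glia means of all 3 sertraline 250 arrays lay below them, while the other treated groups overlapped control in the neuron and glia list. Over the 15 arrays fdft1 correlated with the lipoprotein list at r = -0.76, the liver list at r = -0.69 and the neuron and glia list at r = 0.67, and within groups at -0.35, -0.35 and 0.34. dhcr7 correlated with them at 0.73, 0.64 and -0.75, and within groups at 0.57, 0.50 and -0.57. For hmgcs1 the values were -0.51, -0.56 and 0.42, and -0.23, -0.24 and 0.09 within groups. The intestine and exocrine pancreas lists correlated with fdft1 at -0.61 and -0.62 (-0.42 and -0.31 within groups). With dhcr7 they correlated at 0.62 and 0.66 (0.54 and 0.44 within groups), and with hmgcs1 at -0.21 and -0.52 (-0.19 and -0.26 within groups). The skeletal muscle list correlated with fdft1 at -0.07 and with dhcr7 at 0.13. The part of organ composition in the values of fdft1, dhcr7 and hmgcs1 was not tested. The 10 intestine markers averaged 5.65 to 5.74 in sertraline 250 larvae and 4.53 to 5.07 in control larvae, and the 12 skeletal muscle markers stayed between 13.02 and 13.16 on every array. No marker can be read as absent on this scale, where the lowest deposited value is 0.74.

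The genes whose pattern was most like that of the 5 members together were chosen by Pearson's r over the 15 arrays, among 6699 probe sets with 1 symbol and a mean above the 40th percentile. They were zgc:111986 (r = 0.83), mrpl49, a mitochondrial ribosomal protein (0.80), emd, emerin of the nuclear envelope (0.77), picalmb, a clathrin assembly protein (0.73), lsm8, an RNA-binding protein of the spliceosome (0.72), and dlx5a, a homeobox factor (0.72). The pattern was the unscaled mean of the 5 members' deviations, in which fdft1 and dhcr7 partly offset each other (r = -0.71 between them). It need not resemble any single member. Taken alone, hmgcs1 was most like rrm1 (r = 0.91) and fdft1 most like slmapb (r = 0.87). None of these genes belongs to the sterol lists.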

How the data were processed

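RNA of 15 beakers was read on 15 Affymetrix zebrafish arrays, 3 beakers for each of 5 groups. The authors deposited 1 log2 value per probe set and array, made with GCRMA and Partek as the submitters' processing notes have it, with roles and versions not given in the sources used here. The protocols in the labels give 5 µg of total RNA per labelling. Of 15617 probe sets, 115 Affymetrix controls were left out. Symbols came from the platform annotation of 2016, updated through Entrez numbers (10711 matched RefSeq names and 1 changed), with 10795 probe sets holding 1 symbol, 135 several and 4572 none. The genome build was not given in the sources used here, so no coordinates appear.

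limma 3.58.1 in R 4.3.3 was fitted to all 15 arrays with 1 mean per group, leaving 10 residual degrees of freedom to which moderation added 2.37. Adjusted p-values are Benjamini-Hochberg over the 15502 tested probe sets within a comparison, with 0.05 as threshold, and 95% intervals are not adjusted. The fit was tested on simulated data. Precision is limited by having 3 arrays a group, and the margin on either side of a pairwise difference had a median of 0.24 in log2 units. Besides the 11 comparisons of the design, the 3 that average a drug's concentrations were added after the values were seen. The members and gene lists were chosen with earlier results of these data known.

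All members were named with all probe sets, and a gene with several was counted by the one with the highest mean. From each other list up to 4 genes that passed against control were named per comparison, or the 2 of smallest F test p if none had, and examples beyond that rule (mvk, msmo1, acat2, insig1, apoa1a, cyp27a1.4, acaca, scd, fads2, rrm1 and slmapb) were chosen after their values were seen. Likeness took the 6 genes of highest r. Each result was recomputed after centring arrays on their medians, after quantile normalization, without the lowest 40% of probe sets, with a trended and robust prior, with array weights, on just the groups in question, with replicate number as a block, and without each array in turn. Using the GAPDH difference as covariate, or dropping the 2 arrays where it was largest, was added after the data were seen. Promoter motifs were not searched, and no sequence is shown.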

Additional observations from a re-analysis of the deposited data

Results flagged for a closer look

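3 results stood out because the same gene differed between the drugs by a direct test. fdft1 was higher in sertraline 25 than in fluoxetine 25 larvae by 0.47 on the log2 scale. With both concentrations averaged, a comparison added after the values were seen, hmgcs1 was higher in sertraline than in fluoxetine larvae by 0.57 and fdft1 by 0.30. Neither averaged difference passed with the GAPDH difference as covariate. The fdft1 call at 25 µg/L was lost in some fits that left out a single array and in the fit of these groups alone. No group was large enough to flag a single array as outlying, and the fits without each array in turn are given in the Results.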

How the results depend on the processing

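fdft1 against control in fluoxetine 25 larvae passed in 9 of 15 alternatives and in fluoxetine 250 larvae in 3 of 15, and in every alternative of these comparisons the difference stayed below 0. Of the 8 member probe sets, 1 passed in fluoxetine 25 against control as reported and 0 under a trended and robust prior, array weights or a fit of these groups alone, with 0 to 1 when 1 array was left out. In fluoxetine 250 against control, 1 passed as reported and 0 under the filter on low values, the trended and robust prior, the fit of these groups alone, the fit without 2 arrays or the GAPDH covariate, and 0 without any 1 array. In sertraline 25 against fluoxetine 25, 1 passed as reported, 0 in the fit of these groups alone, 2 without the 2 arrays of largest GAPDH difference, and 0 to 2 without 1 array. In sertraline 250 against fluoxetine 250, 0 passed as reported and 1 (hmgcs1) under the filter or array weights, and in sertraline 250 against sertraline 25 array weights gave 1 (fdft1, adjusted p = 0.0425). Any difference among the groups called 1 as reported, 2 under the filter, array weights or the fit without 2 arrays, and 1 to 2 without 1 array. Both fluoxetine groups against control called 1 as reported, 2 without the 2 arrays and 0 to 3 without 1 array, the 3 without fluoxetine 25 replicate 3 and the 0 without control replicate 2. Both sertraline against both fluoxetine groups called 2 as reported and 0 with the GAPDH covariate. The causes were not tested. Fits of fewer arrays also have fewer residual degrees of freedom.

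Differences from control that changed sign were small and none passed. Leaving out 1 array spread cyp51 by its probe set of highest mean over -0.0938 to 0.287 in fluoxetine 25, -0.312 to 0.0322 in fluoxetine 250 and -0.268 to 0.0393 in sertraline 25 larvae. In sertraline 25 larvae it spread the DrAffx A1_at probe set over -0.0302 to 0.0359 and the S1_at probe set over -0.00986 to 0.00586, and in sertraline 250 larvae nsdhl over -0.0846 to 0.0205. In sertraline 25 larvae the DrAffx A1_at probe set turned to -0.0169 with the GAPDH covariate, and S1_at to 0.0148 under median centring and 0.00512 under array weights. Under quantile normalization S1_at turned to -0.00728 in fluoxetine 25 and 0.00564 in sertraline 250 larvae, and A1_at to 0.00541 in sertraline 250 larvae. There hmgcs1 turned to -0.0221 with the GAPDH covariate and nsdhl to 0.0214 under array weights.

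Pairing of beakers by replicate number was not seen, which does not exclude it. Deviations of 30 same-numbered pairs correlated at -0.32 to 0.40 (median 0.03). Those of 60 pairs with other numbers correlated at -0.46 to 0.40 (median 0.003), and 5 of 15 arrays correlated best with their own number. With the replicate block, fluoxetine 250 against control called 0 members (fdft1 -0.38, adjusted p = 0.0731) and 147 probe sets in all, where the fit without it called 179, and the members' counts in the other comparisons were as reported.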
